A study of Mus musculus with 8 samples.

Results

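The stefin A genes Stfa1, Stfa2 and Stfa3 encode small intracellular inhibitors of cysteine proteases. They were followed in the ear skin of mice in which the gene of corneodesmosin, Cdsn, had been inactivated in the epidermis. Corneodesmosin is the secreted glycoprotein of the junctions that hold the outermost epidermal cells together. The genes were found by their symbols in the authors' deposited table of probe sets that differed between the genotypes. Each had 1 probe set there, so 3 of the 3411 probe sets of that table, and of the 33793 measured, are described. That table holds only probe sets with an adjusted p under 0.05 and a log2 difference of at least 0.5 either way between the knockout and control groups. The 3 genes were thus selected on the measured difference between the groups, which is given as a description, with no test. On average over 4 arrays a group, Stfa3 was 34.1-fold, Stfa1 11.8-fold and Stfa2 4.21-fold higher in KO.

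Total RNA came from 4 mice with the knockout (KO) and 4 control mice (WT), 1 array per mouse. KO mice had the genotype KRT14-CreERT2(tg/0)/Cdsnfl/fl and WT mice KRT14-CreERT2(tg/0)/Cdsnwt/wt, on a background labelled C57B/6J, so both groups carried the tamoxifen-inducible recombinase under a keratin 14 promoter, which acts in basal keratinocytes. Both groups were 7 to 12 weeks old and had 4-hydroxytamoxifen put on each ear at 100 µg a day for up to 15 days. The whole ear skin was used, including cells in which that promoter is not active. In whole tissue, more cells of a type and more RNA per cell cannot be told apart. Cdsn itself read 8.89 to 10.31 in the KO arrays and 11.76 to 12.13 in the WT arrays on the log2 scale, so the labels fit the targeted gene. The epidermal genes Krt1, a keratin of the suprabasal layers, and Ivl, an envelope precursor, were at percentiles 99.5 and 94.3 of mean level over all probe sets, which fits the labelled tissue. One control array stood apart for these genes: WT replicate 1 lay inside or just below the KO range for 2 of the 3 stefins, so the results that rest on it are given with and without it.

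Stefins are cystatins without a signal peptide, and they act inside the cell. They wedge into the active site of papain-like proteases such as cathepsins B, H, L and S and block it reversibly. In human skin the single stefin A gene, CSTA, encodes a component of the cornified envelope, and its loss causes a peeling skin disease. The mouse instead has a family of stefin A genes side by side on chromosome 16, expressed in keratinocytes and in myeloid cells.

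In RefSeq's GRCm38.p6 annotation, 12 protein-coding genes stood in a row from Csta1 to Stfa3. Stfa1 was the sixth gene of the row, and Stfa2 and Stfa3 were the last of it. Besides the 3 stefins, the deposited table held Csta3, under its older symbol Gm5416, and a probe set with the symbol BC117090 whose accession belongs to Cstdc6. All 5 of these were higher in KO and 0 were lower, in a table where 2577 of 3411 probe sets were higher. The other 7 genes of the row, Csta1, Stfa2l1, Cstdc4, Csta2, Cstdc3, Cstdc5 and Gm7260, were not in the table, and neither were the coding genes that border the row, Ccdc58 and Casr. Whether those genes were measured and fell short of the criteria, or had no named probe set, cannot be told from the files. The table's whole chromosome 16 set was mixed, with 61 probe sets higher and 34 lower.

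The 3 genes are also alike in front of their start sites. The 250 bases before each start, from RefSeq's GRCm38.p6, lie at chr16:36276898-36277147 on the plus strand for Stfa1, at chr16:36408364-36408613 on the minus strand for Stfa2 and at chr16:36455393-36455642 on the minus strand for Stfa3. They are shown 5′ to 3′ because the genes were higher together in KO. Capitals mark 3 short motifs: the letters TTTAAA near the start, the GATA motif with the letters AGATAA, and the box named for its letters CCAAT, which here reads ATTGG because it stands on the opposite strand.
Stfa1: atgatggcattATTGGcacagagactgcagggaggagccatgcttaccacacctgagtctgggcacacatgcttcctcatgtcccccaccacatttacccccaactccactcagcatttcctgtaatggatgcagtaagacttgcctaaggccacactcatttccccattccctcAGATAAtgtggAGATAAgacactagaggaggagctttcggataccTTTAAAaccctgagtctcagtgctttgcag
Stfa2: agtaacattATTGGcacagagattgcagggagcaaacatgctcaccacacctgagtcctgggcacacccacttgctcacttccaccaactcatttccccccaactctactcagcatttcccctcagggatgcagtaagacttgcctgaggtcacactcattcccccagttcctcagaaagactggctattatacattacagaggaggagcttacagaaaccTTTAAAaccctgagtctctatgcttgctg
Stfa3: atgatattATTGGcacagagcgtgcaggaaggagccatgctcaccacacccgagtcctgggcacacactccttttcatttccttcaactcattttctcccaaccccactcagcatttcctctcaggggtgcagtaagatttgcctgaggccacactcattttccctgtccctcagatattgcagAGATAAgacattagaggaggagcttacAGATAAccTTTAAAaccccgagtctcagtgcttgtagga
The upstream regions of Stfa1 and Stfa3 were identical in 83.5% of the columns of their alignment, those of Stfa1 and Stfa2 in 81.0% and those of Stfa2 and Stfa3 in 80.4%. Similarity of this size extended to other genes of the row, with 89.4% for Stfa2 and Stfa2l1 and 81.2% for Stfa1 and Cstdc5, neither of which partner was in the table. Csta3, which was in the table, was identical to the 3 stefins in 57.5% to 61.1% of columns, many of them unpaired. Of its paired bases, 85.6% to 90.1% were identical. For Csta1, at the far end, identity over columns was 39.0% to 41.5%, where much of the alignment was unpaired. Of the bases that were paired, 83.6% to 85.9% were identical, against 83.7% for Stfa2 and Stfa3 and 86.9% for Stfa1 and Stfa3. Csta2 was less like the 3 stefins, with 70.1% to 74.6% of paired bases and 45.3% to 47.2% of columns identical. For Cstdc3 these shares were 63.5% to 66.7% and 50.2% to 50.7%.

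Each of the 3 upstream regions held TTTAAA close to the start, at positions -30 to -25 in Stfa1, -29 to -24 in Stfa2 and -31 to -26 in Stfa3, counted back from the start at -1. These letters occurred in 10 of the 11 genes of the row that had a listed promoter, and in 12.1% of 32851 promoters of the same length. ATTGG also stood in all 3, near the upstream end, against 33.8% of promoters with CCAAT on either strand. AGATAA occurred 2 times in Stfa1 and 2 times in Stfa3 and was not found in Stfa2, against 9.99% of promoters. The AP-1 motif with the letters TGANTCA was not found in the 3 regions, against 6.75% of promoters. Nor was a STAT motif with the letters TTCNNNGAA, against 7.02%, or the TATA box with the letters TATAAA, against 12.4%. Both strands were searched, none of the hits in the 3 genes overlapped, and the motifs were chosen with the sequences in view. Since the genes are alike, shared letters are not separate occurrences.

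Stfa3 had the widest separation of group means. Its values in KO replicates 1 to 4 were 12.40, 11.12, 9.59 and 10.32, and in WT replicates 1 to 4 they were 9.99, 5.0, 3.68 and 4.39. WT replicate 1 thus lay above the lowest KO array, by 0.41, and the groups overlapped, whereas the other 3 WT arrays were all far below every KO array. The KO mean was 10.86 ± 1.21 and the WT mean 5.77 ± 2.87 (SD, n = 4 each). They differed by 5.09 log2 units (SE 1.26), or 34.1-fold. Without WT replicate 1 the log2 difference was 6.50, or 90.6-fold, and without WT replicate 3 it was 4.40. By size this was the second of all differences in the table. Its probe set had 13 probes and was of cross-hybridisation class 1, the class for probes with a unique match.

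Stfa1 read 12.13, 12.31, 11.18 and 11.48 in the KO arrays and 11.16, 7.08, 7.15 and 7.45 in the WT arrays. The groups did not overlap, but the gap between WT replicate 1 and the lowest KO array was only 0.022, while the other 3 WT arrays lay within 0.38 of one another. The KO mean was 11.77 ± 0.53 and the WT mean 8.21 ± 1.97 (SD, n = 4 each). The log2 difference was 3.57 (SE 0.83), or 11.8-fold, and without WT replicate 1 it was 4.55, or 23.4-fold. The 10 probes of this probe set were of class 3, meaning that some also match other transcripts, so its signal can include other genes of the family. RefSeq lists Stfa3 among the older names of Stfa1, and the 2 probe sets were therefore told apart by their RefSeq accessions.

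Stfa2 differed from Stfa1 and Stfa3 in the control arrays. It read 5.82, 5.52, 4.45 and 4.63 in the KO arrays and 3.04, 2.71, 3.57 and 2.80 in the WT arrays. WT replicate 1 was in the middle of the WT values here, 0.01 above the mean of the other 3 WT arrays, and the groups were separated by 0.87. The KO mean was 5.10 ± 0.67 and the WT mean 3.03 ± 0.39 (SD, n = 4 each). They differed by 2.07 log2 units (SE 0.32), or 4.21-fold, and by 2.08 without WT replicate 1. This probe set had 8 probes of class 1 and was dim, at percentile 25.6 of mean level over all probe sets. Whether its WT values lie above background was not analysed, as detection calls were not used.

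**Figure D1:**
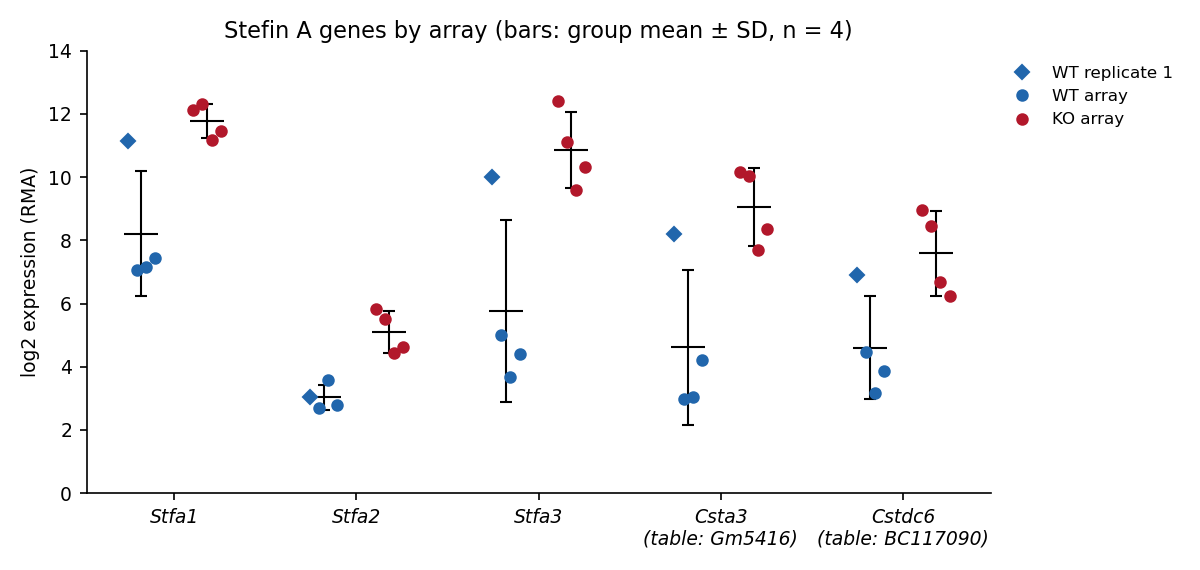
Log2 expression (vertical axis) of Stfa1, Stfa2, Stfa3 and their neighbours Csta3 and Cstdc6 on each of 4 WT (blue) and 4 KO (red) arrays, with group means ± SD (n = 4). WT replicate 1 (diamond) sits at 11.16 for Stfa1 and 9.99 for Stfa3, beside the KO arrays, and at 3.04 for Stfa2, among the WT arrays.

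The values that chose the genes, from the authors' deposited table, were an adjusted p of 0.00634 for Stfa2, 0.0251 for Stfa1 and 0.0312 for Stfa3. The last lay nearest to the threshold of 0.05 and Stfa2 lay nearest to the fold threshold. Of the 33793 probe sets, 10.1% met both criteria, 7.63% with KO higher, and 9.91% had a limma adjusted p under 0.05 with KO higher, whatever the size. Counted in both directions, 13.1% had such a p. The KO values all lay above the WT values for 2 of the 3 genes, Stfa1 and Stfa2, and for 15.9% of all probe sets. Because the table was made from this contrast, nothing is read from these counts. The median log2 difference was 3.57 over the 3 genes and 0.094 over all probe sets tested.

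**Figure D2:**
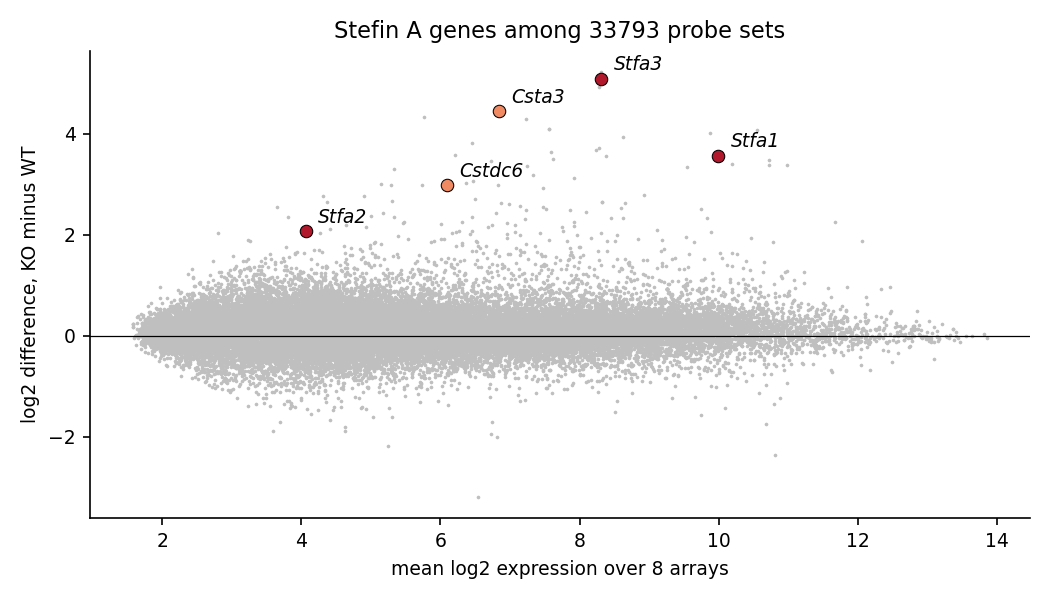
Log2 difference, KO minus WT (vertical axis), against the mean log2 expression over 8 arrays (horizontal axis) for 33793 probe sets (grey), with the 3 stefins (red) and the neighbours Csta3 and Cstdc6 (orange). Stfa3 is at 5.09 and Stfa1 at 3.57 in the upper part of the level range, and Stfa2 is at 2.07 among dim probe sets.

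The neighbours in the row behaved like Stfa1 and Stfa3 in WT replicate 1. Csta3, a further stefin A gene, read 10.17, 10.02, 7.68 and 8.37 in KO and 8.21, 2.99, 3.05 and 4.23 in WT, a log2 difference of 4.44 (SE 1.11), and 5.64 without WT replicate 1. Cstdc6, a gene named for its cystatin domain, read 8.98, 8.47, 6.67 and 6.23 in KO and 6.91, 4.46, 3.18 and 3.87 in WT, a difference of 2.98 (SE 0.85), and 3.75 without WT replicate 1. For both, WT replicate 1 lay inside the KO range and the groups overlapped. Their adjusted p in the authors' deposited table was 0.0326 and 0.0494. Both probe sets were of class 1.

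**Figure D3:**
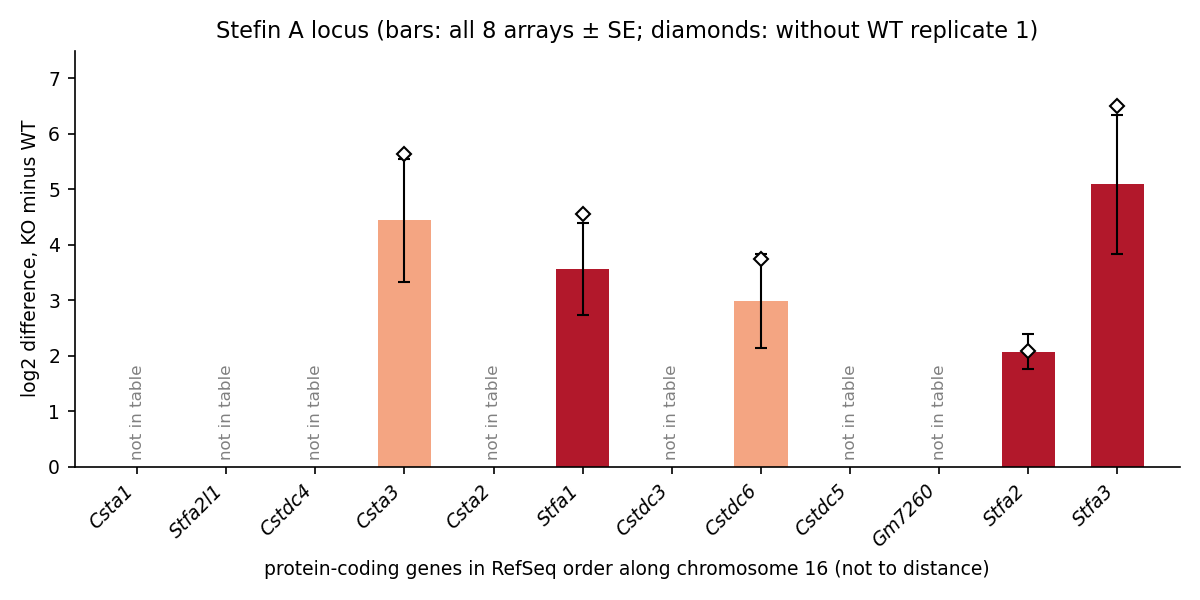
Log2 difference, KO minus WT (vertical axis), of the 12 protein-coding genes from Csta1 to Stfa3 in their order along chromosome 16 (horizontal axis, order only). Bars with SE are from all 8 arrays and open diamonds leave out WT replicate 1. The 5 genes in the deposited table are all higher in KO, and the diamond lies above the bar for 4 of them and on it, at 2.08, for Stfa2.

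Within the WT group, 1 array was the highest for most genes of the row. In 4 of the 5 genes, all but Stfa2, WT replicate 1 was the highest WT array. It exceeded the mean of the other 3 WT arrays by 3.93 log2 units for Stfa1, 5.64 for Stfa3, 4.79 for Csta3 and 3.07 for Cstdc6. WT replicate 1 was the highest WT array for 26.6% of all probe sets and for 36.5% of the 2577 table probe sets higher in KO. It lay above the lowest KO array for 64.7% of all probe sets and for 76 of those 2577, or 2.95%, among them Stfa3, Csta3 and Cstdc6. The criteria of the table select against such overlap.

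Among the KO mice, replicates 1 and 2 both lay above replicates 3 and 4 for all 5 genes. The mean of the first pair exceeded that of the second by 0.89 log2 units for Stfa1, 1.13 for Stfa2, 1.81 for Stfa3, 2.07 for Csta3 and 2.27 for Cstdc6. The same order held for 25.2% of all probe sets and 36.9% of the table probe sets higher in KO. Cdsn read 10.31, 8.89, 9.82 and 9.49 in KO replicates 1 to 4, highest in replicate 1 and lowest in replicate 2. Stefin levels varied among KO mice by up to 2.82 log2 units, in Stfa3. Whether they depend on the remaining Cdsn level was not tested.

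Once group means were removed, Stfa1 and Stfa3 deviated together over the 8 arrays (Pearson r = 0.953), while Stfa2 followed them loosely, with r = 0.210 to Stfa1 and 0.246 to Stfa3. WT replicate 1 set much of this contrast. Over the 7 arrays without it, r was 0.709 for Stfa1 and Stfa3, 0.740 for Stfa1 and Stfa2 and 0.561 for Stfa2 and Stfa3. These values describe arrays that share one normalization, and no test was made of them.

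**Figure D4:**
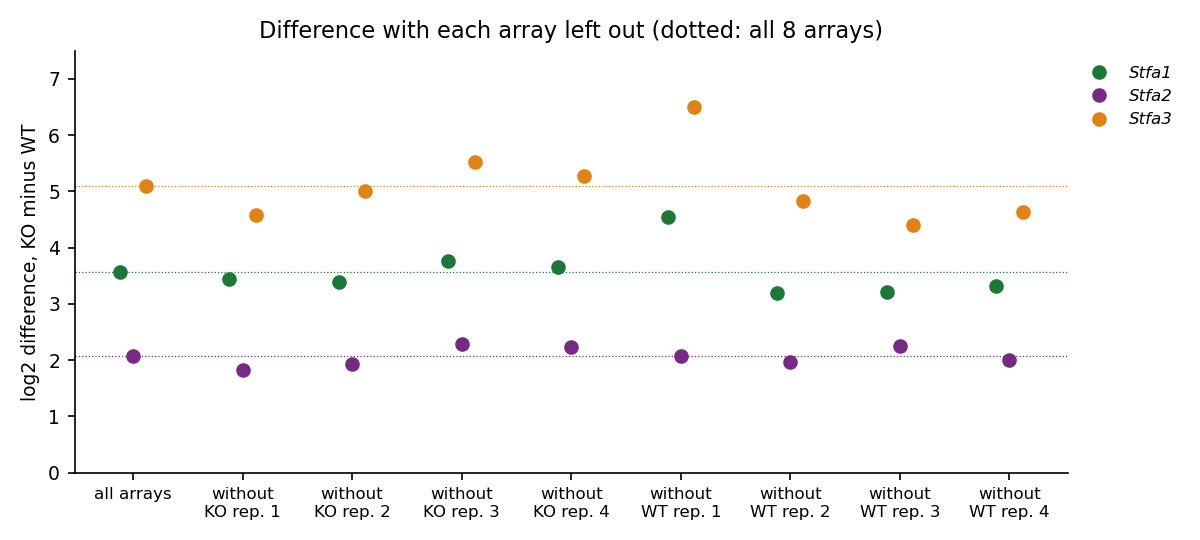
Log2 difference, KO minus WT (vertical axis), of Stfa1, Stfa2 and Stfa3 with all 8 arrays and with each array left out in turn (horizontal axis). Leaving out WT replicate 1 gives the highest value for Stfa3, 6.50, and Stfa1, 4.55, and Stfa2 stays between 1.83 and 2.29.

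Genes with the most similar pattern were sought among 3021 named genes of the table by the same correlation of deviations over 8 arrays. The 5 most like Stfa1 were Xlr4a (0.985, class 3), the epidermal growth factor receptor ligand gene Epgn (0.974), the membrane channel gene Panx1 (0.974), the envelope precursor gene Sprr2e (0.972) and the cell surface proteoglycan gene Sdc1 (0.971). For Stfa3 they were the mitochondrial gene Ndufab1 (0.994), the kallikrein protease gene Klk13 (0.975), Xlr4a (0.974), Sprr2a2 (0.972, class 3) and the predicted gene Gm22739 (0.960, class 3). Of these, Ndufab1 was lower in KO, by -0.52. Stfa2 had other companions: the transporter gene Abca13 (0.980), Ceacam10 (0.979), a cell adhesion molecule gene, Cacng2 (0.962), Fcrl1 (0.959) and Gm22604 (0.953). Cacng2 and Gm22604 were lower in KO, by -0.88 and -0.55. The correlation takes no account of the size of the deviations. Ndufab1 varied only from 6.15 to 6.19 in KO and from 6.66 to 6.77 in WT. Some of these genes were dim, with Xlr4a at 3.05 to 3.94, Gm22739 at 2.55 to 4.06 and Abca13 at 3.05 to 4.28. The array medians were 5.43 to 5.59.

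Correlations above 0.9 were found with 38 of the 3021 genes for Stfa1, 22 for Stfa2 and 46 for Stfa3, so the leading genes are the top of a longer run. Without WT replicate 1 the r fell to 0.700 for Panx1 and 0.682 for Sdc1 with Stfa1, and was 0.902 for Sprr2e. These 3 then stood at ranks 510, 558 and 105 of the 3021 genes, Epgn at 90 and Xlr4a at 22. With Stfa3, Ndufab1 went from the first rank to rank 2 (0.988), Sprr2a2 to 47, Klk13 to 86, Xlr4a to 132 and Gm22739 to 144. With Stfa2, Abca13 and Ceacam10 went from the first ranks to 2 and 3, each at 0.980, and Fcrl1, Cacng2 and Gm22604 were at 8, 11 and 14.

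Of the proteases and inhibitors around the stefins, few genes were in the table. Of 11 papain-family cathepsins and legumain, the proteases that cystatins restrain, 0 were listed in either direction. Of 14 secreted cystatins and kininogens, the inhibitors outside the cell, only Cst12 was listed, higher by 0.87 (SE 0.14) and dim, at percentile 18.6. Of 19 other epidermal protease inhibitors 2 were listed, the serpin gene Serpinb6c at 1.10 (SE 0.13) and Wfdc18 at 0.86 (SE 0.24). The share of these lists in the table was 0%, 7.14% and 10.5%, against 10.1% of all probe sets. Probe sets outside the table carry no names in the files, so no value is given for the cathepsins.

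Neutrophils are among the myeloid cells that express stefins in mice. Of 19 neutrophil markers 5 were in the table (26.3%, against 10.1% of all probe sets), all higher in KO, with a median log2 difference of 2.77: S100a8 and S100a9, which encode the calcium-binding proteins of calprotectin and are also made by stressed keratinocytes, Ly6g, a surface marker, Camp, which encodes a granule antimicrobial protein, and Cxcr2, a receptor for chemokines. The table was chosen on this same contrast, so a difference between the groups is built into its genes and nothing is read from it. The median log2 difference of all 2577 table probe sets higher in KO was 0.711. For the 5 listed markers, the mean log2 level per array was 7.78 to 9.57 in KO and 4.44 to 7.27 in WT. WT replicate 1 was at 7.27 and the other WT arrays at no more than 5.62. The other 14 markers, among them Mpo, Elane and Ltf, were not in the table. Their part in the stefin values was not tested.

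The single markers split in WT replicate 1. It exceeded the mean of the other WT arrays by 4.93 log2 units for S100a8 and 4.41 for S100a9, by 1.52 for Cxcr2 and 0.80 for Ly6g, and lay 0.21 below it for Camp (difference -0.21). The corresponding excess was 3.93 for Stfa1, 5.64 for Stfa3 and 0.01 for Stfa2. In the KO arrays Ly6g stood 4.59 and 4.61 above that control mean in replicates 1 and 2, and 1.40 and 1.29 above it in replicates 3 and 4. In Stfa2 the first pair was likewise above the second, at 2.79 and 2.49 against 1.42 and 1.60. The same order held in Stfa1, Stfa3, S100a8, S100a9, Cxcr2 and Camp, so it does not set Stfa2 apart. The mast cell genes had this split too, with Tpsab1 at 4.86 and 5.0 against 3.95 and 3.50, and Tph1 at 2.95 and 2.45 against 1.22 and 1.04.

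Of 14 keratinocyte markers 4 were in the table (28.6%, against 10.1% of all probe sets), all higher in KO, and 10 were not. The 4 were likewise listed through the contrast of KO and WT. Their mean level per array was 11.32 to 11.75 in KO and 10.17 to 11.13 in WT, where WT replicate 1 gave the top value. Krt1 exceeded the other WT arrays by 1.92 in WT replicate 1 and by 1.99 to 2.93 in KO, and Ivl by 0.76 and by 0.76 to 1.65. Of 10 mast cell markers 3 were in the table (30.0%). The tryptase gene Tpsab1 was higher by 4.30, with WT replicate 1 at 0.12 above the other WT arrays, and Tph1, the serotonin synthesis gene, was higher by 1.81, with WT replicate 1 at 0.42 above them. Tpsb2, another tryptase gene, named after its values were seen, had WT replicate 1 at 0.75 above them and inside the KO range. Of 10 T cell markers 2 were listed (20.0%), the costimulator gene Icos at 1.43 and the regulatory T cell factor gene Foxp3 at 1.17. Among 13 macrophage and monocyte markers and 9 dendritic and Langerhans cell markers 0 were listed (0%). The part of any of these cell types in the stefin values was likewise not tested.

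**Figure D5:**
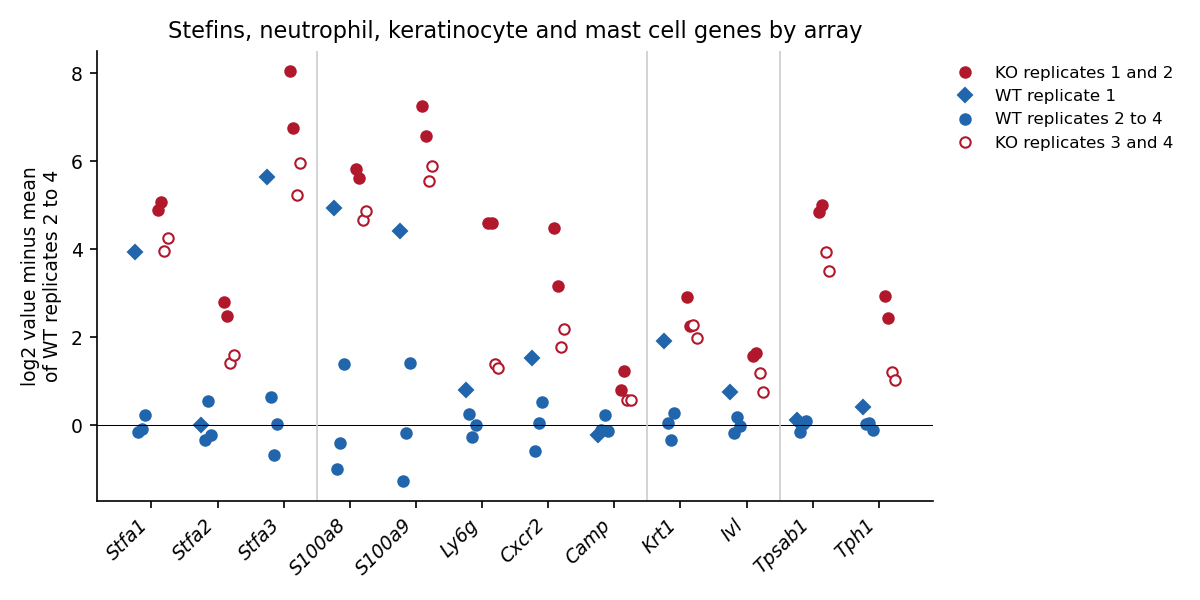
Log2 value on each array minus the mean of WT replicates 2 to 4 (vertical axis) for the 3 stefins, 5 neutrophil genes, 2 keratinocyte genes and 2 mast cell genes (horizontal axis, left to right). WT replicate 1 (diamond) is at 5.64 for Stfa3, 3.93 for Stfa1, 4.41 for S100a9 and 1.92 for Krt1, and at 0.01 for Stfa2 and 0.12 for Tpsab1.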

How the data were processed

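The authors deposited log2 expression values of 33793 probe sets on 8 Affymetrix Gene Mouse 2.0 ST arrays, and their processing notes name RMA, a method that corrects background, normalizes between arrays and summarises probes. The log2 scale is also seen from the deposited group means. The options are not given in the sources used here. Per the labels' protocols, tissue stood in preservative for up to 4 weeks, and labelling started from 9 µg RNA. A second table deposited by the authors covers 3411 probe sets and holds log2 group means and differences. It also gives fold ratios, raw and adjusted p-values, gene symbols and the cross-hybridisation class, per the file headers.

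Values were used as deposited and fitted with limma 3.58.1 in R 4.3.3 over all probe sets, KO minus WT, two-sided, with Benjamini-Hochberg adjustment, and the procedure was tested on simulated data. The SE printed are from that fit. The number of arrays limits the precision. Nothing in the labels gives a batch. No column lacked a sample.

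Members and lists were chosen with earlier results of these data known. Named were the 3 stefins, Cdsn, up to 5 table genes per protease, inhibitor or neutrophil list by size of difference, up to 2 of any other marker list, and the 5 genes most like each stefin. The row of neighbours was chosen after values were seen. Alternatives were quantile normalization, median centring, leaving out dim probe sets or single arrays, and the replicate number as a block. Upstream regions were aligned with biopython 1.88 in Python 3.11.15. Protein sequences were not used here.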

Additional observations from a re-analysis of the deposited data

Results flagged for a closer look

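Of 46 groups of 4 arrays, from 23 probe sets named or listed, 1 held an array far from the others, where chance alone flags about 1 in 20. For Stfa1, WT replicate 1 had a value of 11.16 and the remaining WT replicates lay at 7.08 to 7.45, so that the gap took 0.908 of the whole WT range. For Stfa3, Csta3 and Cstdc6 the same array was also the highest of the WT arrays, with gaps that stayed under the same critical value of Dixon's test. The genes most like each stefin were not checked in this way. In some of them WT replicate 1 also stood apart, as in Sprr2e, at 8.22 against 4.86 to 5.01 in the other WT arrays.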

How the results depend on the processing

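The log2 differences of Stfa1, Stfa2 and Stfa3 were positive under every alternative run. They moved by less than the pooled SD of the groups, which was 1.45, 0.55 and 2.20. WT replicate 1 widens that SD for Stfa1 and Stfa3, so it is a lenient measure there. For Stfa1 the SD was 0.53 in KO and 0.20 in the other WT arrays. After quantile normalization the differences were 3.47, 1.97 and 4.94, and after median centring 3.47, 1.97 and 4.99. Over the 8 fits with an array left out they ran from 3.19 to 4.55 for Stfa1, from 1.83 to 2.29 for Stfa2 and from 4.40 to 6.50 for Stfa3, with the highest values of Stfa1 and Stfa3 without WT replicate 1. Membership was less stable: the limma adjusted p was at or above 0.05 in 5 of these 8 fits for Stfa1, 6 for Stfa3 and 0 for Stfa2, and at most 0.0801. With dim probe sets left out it was 0.0565 for Stfa3 and 0.0498 for Stfa1, and Stfa2 was not among the 17126 probe sets kept. Csta3 and Cstdc6, added after seeing the data, ranged from 3.90 to 5.64 and from 2.50 to 3.75 over the left-out arrays, each with adjusted p at or above 0.05 in 6 of the 8 fits (at most 0.0847 and 0.123). With dim probe sets left out their adjusted p was 0.0586 and 0.0804, and Cstdc6 had an adjusted p of 0.0635 with quantile normalization and 0.0602 with median centring. Each gene had 1 probe set, so averaging probe sets changed nothing, and with class 1 alone Stfa1 had no value. Over all probe sets limma called 4428, and 2161 to 3504 with an array left out, 1009 with dim probe sets left out (of 17126), 3440 with quantile normalization and 3417 with median centring. KO was the higher group in 75.7% of calls from the deposited values, in 49.1% of those from quantile-normalized values and in 53.2% of those from median-centred values, with a median log2 difference of all probe sets of 0.094, -0.021 and -0.005. The replicate numbers do not pair the mice by the labels, and the deviations of same-numbered arrays correlated at 0.548, -0.062, 0.276 and 0.304. Differently numbered arrays also deviated together over all probe sets. WT replicate 1 correlated at 0.55 and 0.30 with KO replicates 1 and 2, and at -0.46 and -0.49 with KO replicates 3 and 4. What these arrays share was not tested. With the replicate block 5150 probe sets were called and the 3 stefins stayed under the threshold. Signal over background limits the reading of Stfa2, whose WT values lay at 2.71 to 3.57.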
